A study of Aconitum carmichaelii with 4 samples.

Results

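Leaf was set against flower bud of Aconitum carmichaelii, a medicinal monkshood of the buttercup family whose roots accumulate diterpene alkaloids. The comparison took every unigene longer than 500 bases that had at least 40 fragments summed over the leaf and bud libraries. It held 23060 of the 128183 assembled unigenes, or 49.4% of the 46697 unigenes above this length, and they came from 16989 Trinity genes. A unigene is one transcript of the de novo assembly, and a Trinity gene is the group of transcripts that the assembler treated as one locus. The plants were 3 years old, of a single plant material, untreated, and grown outdoors at a medicinal plant station. Leaf, flower, root and bud were each represented by 1 poly(A)-selected library, and the sources used here do not say how many plants went into each. The leaf library held 5400853 fragments and the bud library 6614173, and flower and root, used here only to place the leaf and bud values, held 7057551 and 4811266.

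A mature leaf is a photosynthetic organ in which most cells have stopped dividing, and its plastids make isoprenoid precursors through the methylerythritol phosphate (MEP) pathway. A flower bud holds young floral organs, dividing cells and developing pollen, and its cell walls are being laid down and remodelled. Isoprenoid precursors are also made outside the plastid, by the mevalonate (MVA) pathway. Diterpenes such as the skeletons of aconite alkaloids are classically drawn from the plastid route.

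Levels are given in TPM, the relative number of transcripts after correction for unigene length, with the fragment count behind them. Each organ had a single library and could not be tested against another, so each ratio of leaf to bud carries an exact 95% interval that covers counting error only and not the variation between plants. A unigene was called when its TPM differed at least 4-fold and this interval excluded 1. On this rule 2145 unigenes, or 9.3%, were called higher in leaf, and 2845 unigenes, or 12.3%, were called higher in bud. The median log2 ratio of leaf to bud over all 23060 unigenes was -0.15, with quartiles of -0.96 and 0.65. After TMM scaling, which sets the bulk of the unigenes of both libraries level, 2275 unigenes (9.87%) were called higher in leaf and 2751 (11.9%) higher in bud, and the median log2 ratio was -0.06. On the deposited FPKM scale, whose sum was smaller in leaf than in bud, the counts were 1655 higher in leaf and 3562 higher in bud. The leaf calls thus made up 31.7% of all calls on that scale, against 43.0% on the TPM scale.

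**Figure D1:**
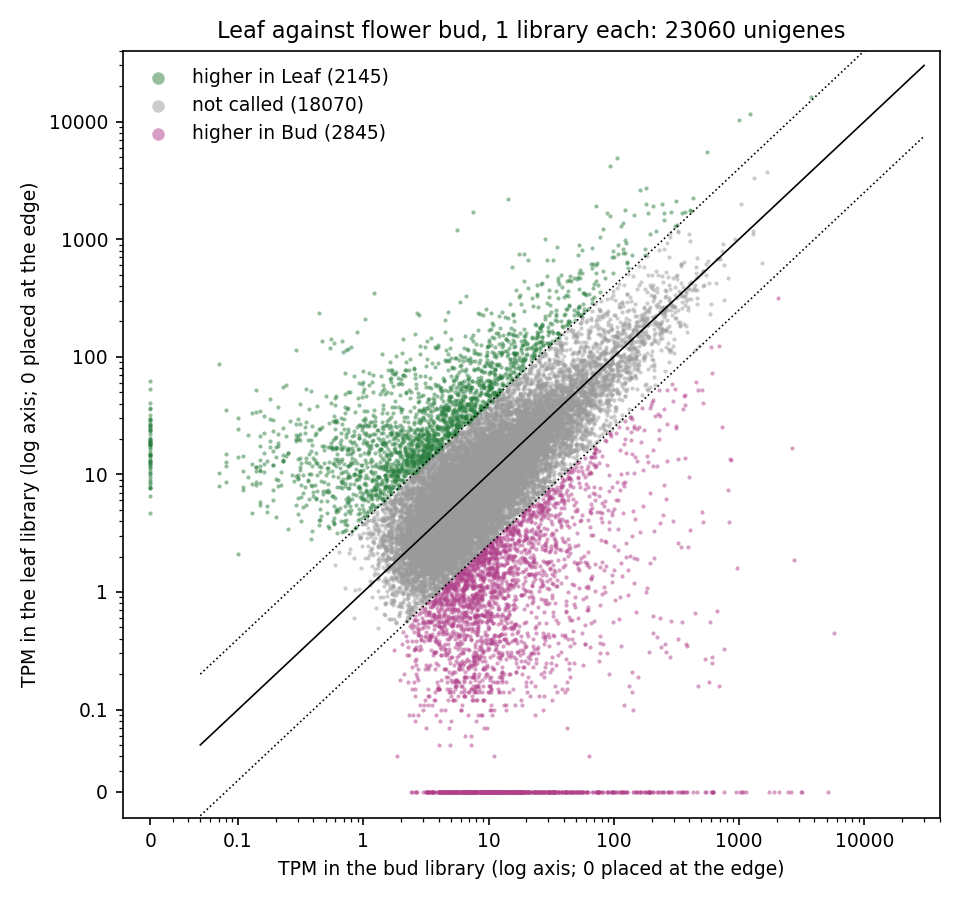
TPM in the leaf library (vertical log axis) against TPM in the bud library (horizontal log axis) of the 23060 unigenes, each point 1 unigene, with the line of equal TPM (solid) and the 4-fold lines (dotted). The 2145 unigenes called higher in leaf are green and the 2845 called higher in bud are magenta, and the row of points at a leaf TPM of 0 holds 626 unigenes, while 60 unigenes lie at a bud TPM of 0.

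The calls toward bud reached further than those toward leaf. Of the 2845 unigenes called higher in bud, 626 had no fragment in leaf (2.71% of all 23060) and 1654 differed at least 10-fold with counts of 0 read as 3 fragments, whereas 60 of the 2145 called higher in leaf had no fragment in bud (0.26% of all) and 842 differed at least 10-fold. The sum rule admits a unigene through 1 library alone, so these had to differ. Under 10 leaf fragments were held by 2045 of the bud calls, and under 10 bud fragments by 507 of the leaf calls. Depth was also unequal. At the median unigene 3 fragments stood for 0.439 TPM in leaf and 0.275 TPM in bud, so equal TPM gave fewer leaf fragments. With 1 library alone, 13054 unigenes reached 40 fragments in leaf and 18257 in bud. How much of the difference between the directions follows from this was not tested. Among unigenes with 40 to 99 summed fragments, 7.66% were called higher in leaf and 14.6% higher in bud. Among the 66 unigenes with at least 10000 fragments the order turned, with 35 called higher in leaf and 15 called higher in bud. From its lower to its upper bound the median interval spanned 3.38-fold in the shallowest of these classes and 1.09-fold in the deepest.

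A few unigenes took much of the leaf library. The 10 with the most fragments held 20.7% of all leaf fragments, against 8.51% for the 10 highest of the bud library, and none of them carried a description. The most abundant unigene of both libraries was TR43559|c0_g1_i1, 8896 bases long, with 16180.2 TPM (842454 fragments) in leaf, against 3751 TPM (312375 fragments) in bud, and it alone took 15.6% of the leaf fragments and 4.72% of the bud fragments. Its TPM was 4.31-fold higher in leaf (95% interval 4.296 to 4.33), a call that ended on the FPKM scale, and it reached 823 TPM in flower and 45.2 TPM in root. The next undescribed leaf unigene, TR41702|c0_g1_i5, had 11662 TPM (43128 fragments) in leaf, against 1229.5 TPM (7239 fragments) in bud, and no fragment in root. In bud the counterparts were nearly absent elsewhere. TR29377|c0_g1_i1 had 0.45 TPM (1 fragment) in leaf, against 5738 TPM (20205 fragments) in bud, and TR38018|c0_g1_i1 had 0 TPM (0 fragments) in leaf, against 5125 TPM (66416 fragments) in bud. These unigenes have no match in the annotation used here, so no role is given to them. Leaving the 10 most abundant unigenes of each library out of the TPM sum gave 2177 calls higher in leaf and 2822 higher in bud.

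Markers of each organ were checked next. The alpha subunit of the rubisco-binding chaperonin, which folds plastid proteins, was described for 5 unigenes, and 4 were called higher in leaf, with 374 TPM summed over them in leaf, against 177 TPM in bud. Fructose-bisphosphate aldolase, an enzyme of glycolysis and of carbon fixation, summed to 537 TPM in leaf and 272 TPM in bud. It summed to 566 TPM in root and 364 TPM in flower, so the sum does not mark leaf. Of its 4 unigenes that passed, 2 were called higher in leaf and 1 higher in bud. Plastid-encoded transcripts had few fragments, and the photosystem II unigenes summed to 38 fragments in leaf and 4 in bud with none passing the count minimum. Of the bud markers, histone H4 summed to 45 fragments in leaf and 3753 in bud, and the callose synthase 5-like unigenes, whose counterpart in Arabidopsis builds the callose wall of developing pollen, summed to 8 fragments in leaf and 133 in bud. The retinoblastoma-related unigenes summed to 20.3 TPM in leaf and 65.9 TPM in bud with none called. KIF4-like kinesin summed to 19 fragments in leaf and 131 in bud. Histone H3, also a bud marker, differed little, with 959 TPM in leaf and 1220 TPM in bud. Contrary to its place among the bud markers, FUL 2, a MADS-box factor of the FRUITFULL type, summed to 267 TPM in leaf, against 49.2 TPM in bud. The FRUITFULL-like MADS-box unigene, another bud marker, had 4 fragments in leaf, 1 in bud and 87 in root. The root markers CDPS4, KS1 and KS2 had 5, 1 and 0 fragments in leaf and 6, 7 and 20 in bud, against 112, 135 and 213 in root. In whole organs, fewer cells of a type and less RNA per cell cannot be told apart, which holds for each value that follows.

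Descriptions rest on matches to other species and were taken from the part of the study's supplementary annotation used here, which covers 713 of the 23060 unigenes (3.09%), so each list holds only part of its family. The share was 3.12% among unigenes called higher in leaf and 3.06% among those called higher in bud. From these descriptions 20 gene lists were drawn, and 262 unigenes of the comparison fell in at least 1 of them. Counts and medians cover only the unigenes that passed the count minimum, which could be met through 1 library alone. Counts of each list are to be read against the 9.3% and 12.3% above, and medians against -0.15, with a count of 0 set at 3 fragments.

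**Figure D2:**
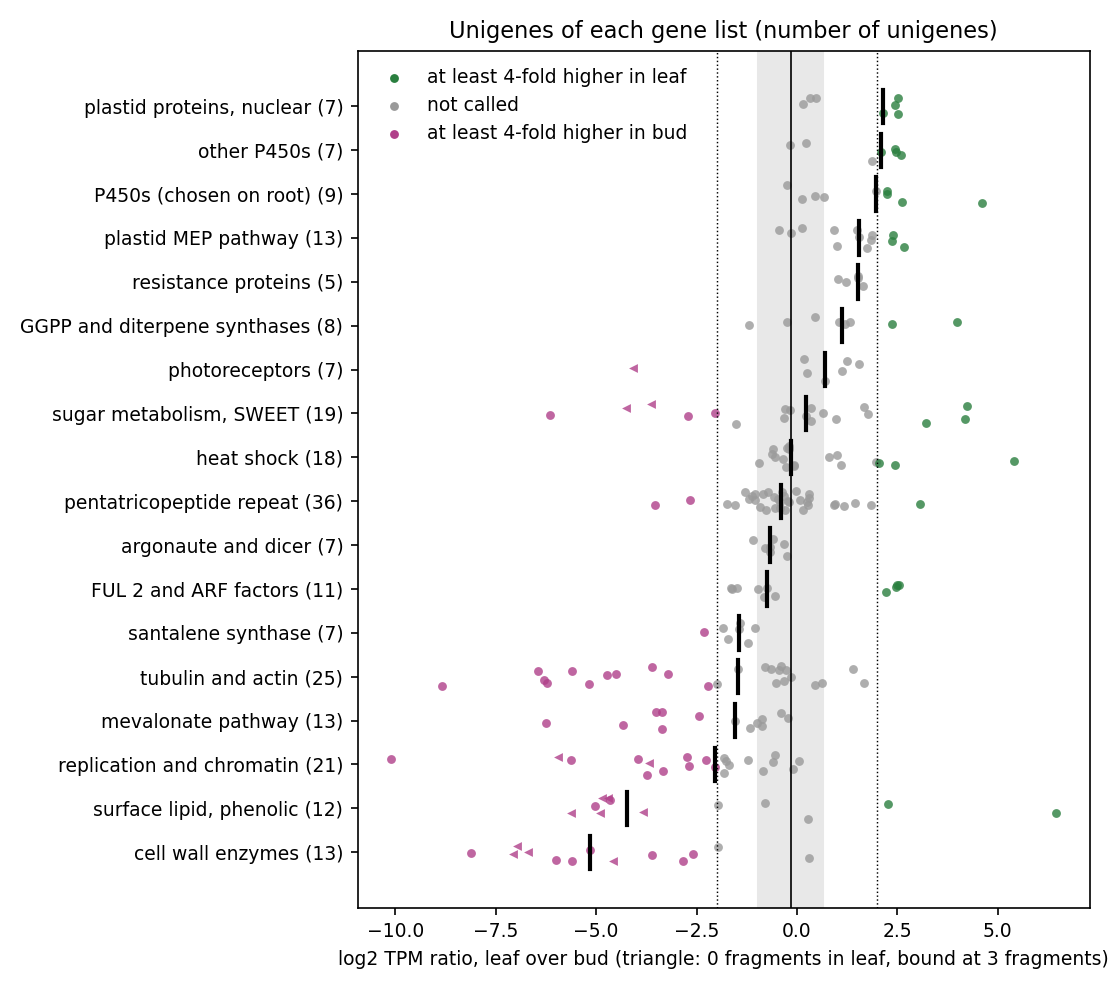
Log2 TPM ratio of leaf over bud (horizontal axis) of the unigenes of 18 gene lists, each point 1 unigene coloured by its call, with the list median as a black bar and the interquartile range of all 23060 unigenes as the grey band. Among the unigenes that passed, the cell wall list has the lowest median, -5.16, and the list of nuclear-encoded plastid proteins the highest, 2.14.

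The early mevalonate pathway was lower in leaf. Of the 17 annotated unigenes 13 passed, 6 were called higher in bud and 0 higher in leaf, and the median log2 ratio was -1.54. The 6 came from 3 Trinity genes, since RSEM reports each transcript and divides fragments between similar ones. Acetoacetyl-CoA thiolase (AACT) joins the first acetyl units, and AACT1 had 0.43 TPM (2 fragments) in leaf, against 32.7 TPM (244 fragments) in bud, which was 76.6-fold lower in leaf (95% interval 20.97 to 636). Its relatives AACT3 and AACT4, transcripts of 1 other Trinity gene, were 1.83-fold lower and 1.83-fold lower, so the 3 unigenes of this enzyme did not share a level. Hydroxymethylglutaryl-CoA synthase (HMGS) makes the substrate of the committed step. HMGS3 had 3.99 TPM (38 fragments) in leaf, against 41.1 TPM (624 fragments) in bud, HMGS2 of the same Trinity gene was 10.2-fold lower, and HMGS4 of another Trinity gene was 1.32-fold lower.

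Hydroxymethylglutaryl-CoA reductase (HMGR), the rate-limiting enzyme of the pathway, was called for each of its 3 unigenes. HMGR1 had 2.44 TPM (9 fragments) in leaf, against 48.9 TPM (287 fragments) in bud. HMGR2 had 2.49 TPM (29 fragments) in leaf, against 28.2 TPM (524 fragments) in bud, and HMGR3 had 5.25 TPM (63 fragments) in leaf, against 28.4 TPM (545 fragments) in bud. They were 20.03-fold lower in leaf (95% interval 10.4 to 44.3), 11.3-fold lower in leaf (95% interval 7.78 to 17.1) and 5.42-fold lower in leaf (95% interval 4.17 to 7.15). All 3 were transcripts of 1 Trinity gene, and their summed level was 10.2 TPM in leaf, against 106 TPM in bud, with 71.9 TPM in flower and 150 TPM in root. Leaf was the lowest of the 4 libraries for this enzyme, and the sum was 10.4-fold lower in leaf (95% interval 8.46 to 12.8).

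The later steps differed less. Mevalonate kinase (MVK) had 9.32 TPM (65 fragments) in leaf, against 18.6 TPM (207 fragments) in bud. The 2 unigenes of mevalonate diphosphate decarboxylase (MVDD), which forms isopentenyl diphosphate (IPP), were 2.903-fold lower and 2.23-fold lower. Phosphomevalonate kinase PMK3 had 12.1 TPM (150 fragments) in leaf, against 14.1 TPM (278 fragments) in bud, and its interval for the fold lower in leaf, 0.948 to 1.42, included 1. None of these was called. Of the 13 unigenes 12 had an interval wholly below 1 and 1 an interval that spanned it, against 36.1% of all unigenes with an interval below 1. The other 4 annotated unigenes, AACT2, HMGS1, PMK1 and PMK2, had 13 to 39 fragments in the sum of both libraries and did not enter.

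**Figure D3:**
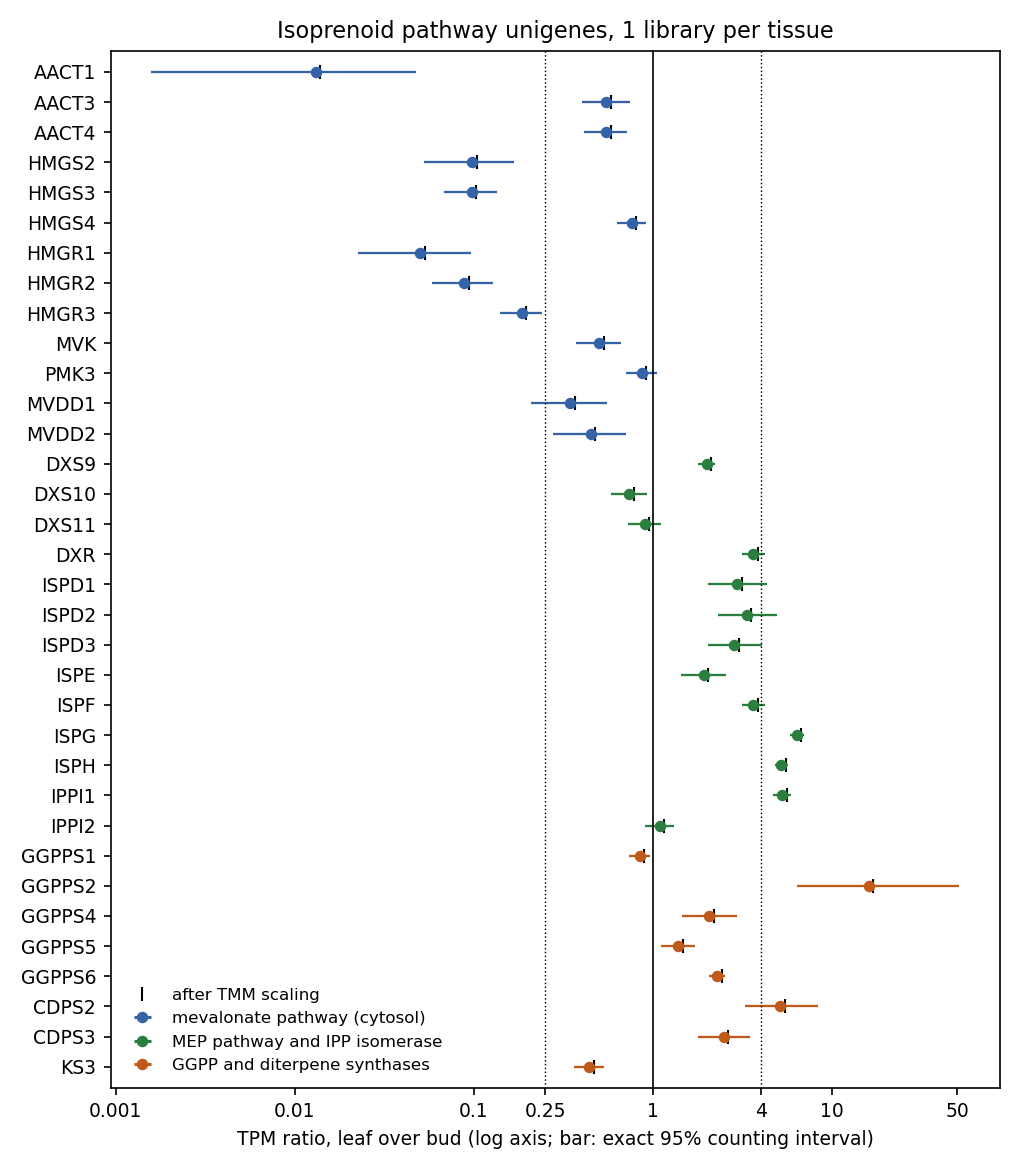
TPM ratio of leaf over bud (horizontal log axis) of the 34 isoprenoid pathway unigenes in pathway order from top to bottom, with exact 95% counting intervals as bars and the ratio after TMM scaling as a black tick. All 13 mevalonate ratios lie below 1, from 0.0131 for AACT1 to 0.862 for PMK3, whereas 10 of the 13 MEP pathway unigenes have intervals above 1.

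In the plastid pathway the order was the opposite. Of 21 annotated unigenes of the MEP pathway and IPP isomerase 13 passed, 3 were called higher in leaf and 0 higher in bud, the median log2 ratio was 1.56, and 10 intervals lay above 1, against 29.4% of all unigenes. The 3 called unigenes stood at the end of the route. ISPG, which makes hydroxymethylbutenyl diphosphate, had 153 TPM (2416 fragments) in leaf, against 24.2 TPM (609 fragments) in bud, and was 6.34-fold higher in leaf (95% interval 5.798 to 6.94). ISPH, which turns this into IPP and its isomer, had 250.1 TPM (2315 fragments) in leaf, against 48.1 TPM (711 fragments) in bud, and was 5.199-fold higher in leaf (95% interval 4.78 to 5.66), a call that ended on the FPKM scale. IPPI1, an isomerase that balances the pair, had 199 TPM (1380 fragments) in leaf, against 38.04 TPM (420 fragments) in bud, and was 5.24-fold higher in leaf (95% interval 4.697 to 5.86).

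The middle steps were higher in leaf without reaching 4-fold. DXR, the first committed enzyme, had 53.2 TPM (603 fragments) in leaf, against 14.7 TPM (266 fragments) in bud. ISPF had 136 TPM (630 fragments) in leaf, against 37.4 TPM (277 fragments) in bud. They were 3.62-fold higher in leaf (95% interval 3.13 to 4.199) and 3.62-fold higher in leaf (95% interval 3.14 to 4.19), and on the TMM scale the ratios were 3.84 and 3.85. The 3 transcripts of ISPD lay between 2.84 and 3.34-fold higher in leaf, and ISPE was 1.91-fold higher. The entry enzyme, DXS, which joins pyruvate and glyceraldehyde phosphate, was split among its paralogs. DXS9 had 56.6 TPM (731 fragments) in leaf, against 28.4 TPM (586 fragments) in bud, DXS10 had 8.47 TPM (116 fragments) in leaf, against 11.5 TPM (252 fragments) in bud, and DXS11 had 10.2 TPM (147 fragments) in leaf, against 11.4 TPM (262 fragments) in bud. DXS9 was thus 1.99-fold higher, DXS10 1.36-fold lower, and DXS11 lay within its interval of 1. DXS10 was at 163 TPM in flower and 17.8 TPM in root, so it was far more abundant in flower than in leaf or bud. The other 8 DXS unigenes had 5 to 25 fragments in the sum of leaf and bud. The second isomerase, IPPI2, had 12.2 TPM (183 fragments) in leaf, against 11.2 TPM (269 fragments) in bud, with a ratio interval of 0.896 to 1.32.

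Downstream, geranylgeranyl diphosphate synthase (GGPPS) builds the diterpene precursor. Copalyl diphosphate synthase (CDPS) carries out its first cyclization step and kaurene synthase (KS) the second. Of 14 annotated unigenes 8 passed, with 2 called higher in leaf, 0 higher in bud and a median log2 ratio of 1.11. GGPPS2 had 8.33 TPM (50 fragments) in leaf, against 0.52 TPM (5 fragments) in bud, and was 15.95-fold higher in leaf (95% interval 6.399 to 51.3), with the width of the interval set by the 5 bud fragments. The more abundant GGPPS6 had 106 TPM (861 fragments) in leaf, against 46.4 TPM (604 fragments) in bud, which was 2.28-fold higher, and GGPPS1 had 46.4 TPM (337 fragments) in leaf, against 55.03 TPM (638 fragments) in bud, which was 1.19-fold lower. CDPS2 had 24.03 TPM (84 fragments) in leaf, against 4.67 TPM (26 fragments) in bud, which was 5.14-fold higher in leaf (95% interval 3.28 to 8.32), and this call too ended on the FPKM scale. It had no fragment in root and 5 in flower. CDPS3 was 2.48-fold higher. KS3 went the other way, with 12.3 TPM (145 fragments) in leaf, against 27.96 TPM (527 fragments) in bud, and was 2.28-fold lower in leaf (95% interval 1.89 to 2.75). So the cyclase unigenes of successive steps did not keep 1 order between leaf and bud, and the root-rich ones, CDPS4, KS1 and KS2, had too few fragments to compare.

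Cytochrome P450s oxidise terpenoid skeletons. The 21 P450 unigenes that the study picked for their root expression were chosen on these same libraries, so they are no independent evidence, and 9 of them passed. All 9 had their highest TPM in root. Between leaf and bud 4 were called higher in leaf and 0 higher in bud, with a median log2 ratio of 1.96. The largest difference was that of TR32515|c0_g1_i1, with 16.4 TPM (46 fragments) in leaf, against 0.67 TPM (3 fragments) in bud, or 24.4-fold higher in leaf (95% interval 7.83 to 123). The other 3 were transcripts of 1 Trinity gene, TR47900|c2_g2, and lay between 4.76 and 6.10-fold higher in leaf. Of them, the 2 at 4.77 and 4.76-fold lost the call on the FPKM scale. Of 7 other described P450s, 4 of different Trinity genes were called higher in leaf and 0 higher in bud, and all 4 were described as 82A3-like, of which the 1 at 4.26-fold lost its call on the FPKM scale. TR48176|c3_g1_i3 had 55.3 TPM (449 fragments) in leaf, against 9.18 TPM (119 fragments) in bud, and TR40144|c3_g2_i2 had 67.2 TPM (403 fragments) in leaf, against 12.2 TPM (117 fragments) in bud. These were 6.02-fold higher in leaf (95% interval 4.91 to 7.44) and 5.49-fold higher in leaf (95% interval 4.46 to 6.81).

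Santalene synthase, a sesquiterpene synthase, was lower in leaf. Of 17 annotated mono- and sesquiterpene synthase unigenes 7 passed, with 5 left out as too short and 5 for low counts. The 7 were all santalene synthase transcripts of 1 Trinity gene, each with an interval below 1, and 1 was called higher in bud. TR45580|c1_g3_i12 had 1.13 TPM (8 fragments) in leaf, against 5.66 TPM (64 fragments) in bud, or 5.01-fold lower in leaf (95% interval 2.397 to 12.1), and the other 6 lay between 2.06 and 3.59-fold lower in leaf. On the FPKM scale TR45580|c1_g3_i10 and TR45580|c1_g3_i11 were called as well, which made 3. All 7 had their highest TPM in bud.

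Of 7 nuclear-encoded plastid unigenes 4 were called higher in leaf and 0 higher in bud, with a median log2 ratio of 2.14. The calls and the median rest largely on 1 gene. The 4 were transcripts of 1 Trinity gene for the alpha subunit of the rubisco-binding chaperonin. TR37670|c3_g1_i1 had 63 TPM (756 fragments) in leaf, against 11.01 TPM (211 fragments) in bud, or 5.72-fold higher in leaf (95% interval 4.91 to 6.699), and the others were 4.42, 5.41 and 5.68-fold higher, the lowest of which lost its call on the FPKM scale. A second Trinity gene for the same subunit, TR38483|c0_g1, was near even at 1.11-fold. The (p)ppGpp synthase TR47180|c0_g2_i4, which makes the plastid alarmone, was 1.26-fold higher in leaf (95% interval 1.095 to 1.44), and the GTP pyrophosphokinase TR47180|c0_g1_i1 was 1.38-fold higher in leaf (95% interval 0.838 to 2.26), an interval that included 1. The plastid-encoded NADH-plastoquinone oxidoreductase subunit 4, part of cyclic electron flow, had 6.48 TPM (48 fragments) in leaf, against 0.76 TPM (9 fragments) in bud, which was 8.51-fold higher in leaf (95% interval 4.13 to 19.7).

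Among 19 unigenes of sugar metabolism and transport, 3 were called higher in leaf and 5 higher in bud, and paralogs parted. The aldolase TR42946|c5_g1_i1 had 239.8 TPM (1685 fragments) in leaf, against 12.8 TPM (143 fragments) in bud, or 18.8-fold higher in leaf (95% interval 15.8 to 22.5), and its sister transcript TR42946|c5_g1_i4 was 18.1-fold higher. Both transcripts of the other aldolase gene were lower in leaf, with TR38524|c1_g1_i1 at 188 fragments in leaf, against 1231 in bud, and a TPM ratio of 0.244, just past the threshold and just short of it after TMM scaling. SWEET proteins export sugars from cells. One SWEET14-like unigene, TR39931|c0_g2_i1, had 16.7 TPM (99 fragments) in leaf, against 1.8 TPM (17 fragments) in bud, and was 9.29-fold higher in leaf (95% interval 5.52 to 16.6). The other, TR41079|c0_g1_i1, had 0.15 TPM (1 fragment) in leaf, against 10.4 TPM (114 fragments) in bud, and was 71.4-fold lower in leaf (95% interval 12.6 to 2846). Both transcripts matching rice SWEET15 had no leaf fragment and 91 and 59 bud fragments, and reached 123 and 78.9 TPM in flower. A trehalose 6-phosphate synthase, TR46167|c0_g3_i1, had 1.76 TPM (32 fragments) in leaf, against 11.6 TPM (338 fragments) in bud, or 6.61-fold lower in leaf (95% interval 4.59 to 9.82), while the beta-amylase 8 unigene had 57.1 TPM (196 fragments) in leaf, against 16.9 TPM (92 fragments) in bud, or 3.39-fold higher in leaf (95% interval 2.63 to 4.39), and was not called.

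Of the 7 photoreceptor unigenes 0 were called higher in leaf and 1 higher in bud, while 4 intervals lay above 1, 2 spanned it and 1 lay below. The 3 cryptochrome unigenes, blue light receptors, were 2.93-fold higher, 2.35-fold higher and 2.19-fold higher, and none was called. Phytochrome B, a red light receptor, was 1.64-fold higher for TR47849|c0_g1_i2 and 1.14-fold higher in leaf (95% interval 0.947 to 1.37) for TR47460|c0_g1_i1. Phytochrome C, of the same family, was 1.19-fold higher in leaf (95% interval 0.942 to 1.49), and the last pair of intervals included 1. Phytochrome A, the receptor that in Arabidopsis accumulates in the dark, was the one called. It had 0 TPM (0 fragments) in leaf, against 4.72 TPM (81 fragments) in bud, or at least 16.9-fold lower in leaf, and was highest in root at 29.4 TPM.

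Most replication and chromatin unigenes that passed were lower in leaf. Of 48 annotated unigenes 21 passed, with 17 left out as too short and 10 for low counts. Of the 21, 11 were called higher in bud and 0 higher in leaf, the median log2 ratio was -2.05, and 20 intervals lay below 1. A unigene near 0 in leaf passes through bud alone and has to differ, so neither count nor median describes these genes at large. After TMM scaling 10 of the 11 were called. Histone H4, which packs newly copied DNA, had 0.35 TPM (1 fragment) in leaf, against 387 TPM (1749 fragments) in bud. On 1 leaf fragment the fold is loosely bounded, 1100.3-fold lower in leaf (95% interval 197 to 43483), and the same unigene had 132 TPM in flower and 24.7 TPM in root. The named DNA (cytosine-5)-methyltransferases, which copy or set cytosine methylation, were picked for the lowest ratios of the list. They thus had to be low in leaf and do not speak for the family. TR46739|c0_g1_i1 had 0 TPM (0 fragments) in leaf, against 12.5 TPM (295 fragments) in bud, or at least 61.5-fold lower in leaf. TR48397|c0_g1_i7 had 1.12 TPM (18 fragments) in leaf, against 17.3 TPM (446 fragments) in bud, or 15.5-fold lower in leaf (95% interval 9.697 to 26.4). TR41912|c1_g1_i1 was 49.5-fold lower on 1 leaf fragment.

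Histone H3 did not follow histone H4. Its 8 unigenes summed to 959 TPM in leaf, against 1220 TPM in bud. The most abundant, TR35707|c0_g1_i1, had 259.7 TPM (1092 fragments) in leaf, against 249 TPM (1670 fragments) in bud, with a ratio interval of 0.964 to 1.12. The 3 called H3 unigenes were transcripts of TR34723|c0_g5, with 7 to 16 fragments in leaf and 79 to 147 in bud.

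Of 25 unigenes of the cytoskeleton list 11 were called higher in bud and 0 higher in leaf, with a median log2 ratio of -1.48, and all 11 were tubulins. The beta tubulin TR41353|c3_g2_i1 had 0.45 TPM (4 fragments) in leaf, against 204 TPM (2901 fragments) in bud, or 454-fold lower in leaf (95% interval 177 to 1668). The alpha tubulin TR42031|c3_g2_i1 had 3.99 TPM (40 fragments) in leaf, against 296 TPM (4737 fragments) in bud, or 74.2-fold lower in leaf (95% interval 54.4 to 104). A different alpha tubulin, TR42031|c2_g1_i1, had 53.2 TPM (656 fragments) in leaf, against 34.6 TPM (681 fragments) in bud, and reached 286 TPM in flower. Of the 6 actin unigenes none was called. Transcript TR43897|c6_g1_i2 had 226 TPM (2144 fragments) in leaf, against 165 TPM (2495 fragments) in bud, or 1.37-fold higher in leaf (95% interval 1.29 to 1.45), whereas the other transcripts of that Trinity gene were 1.57-fold lower (i1), 1.25-fold lower (i3) and 1.104-fold lower (i6), each with an interval below 1. The other actins, TR32128|c0_g1_i1 and TR44767|c0_g1_i1, were 3.19-fold higher and 2.62-fold higher, on 16 and 67 bud fragments.

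Cell wall enzymes gave calls toward bud. Of 39 annotated unigenes 13 passed and 20 were left out for low counts, 11 of them were called higher in bud, each of a different Trinity gene, and 0 higher in leaf. The median log2 ratio was -5.16, and 4 of the 13 had no leaf fragment, so this median rests in part on bounds. The 11 called had 0 to 16 leaf fragments and 48 to 646 bud fragments, so they passed through bud alone and had to differ, and neither their number nor the median describes the cell wall genes at large. The endoglucanase 8-like TR40489|c0_g1_i1, a cellulase of family 9, had 0 TPM (0 fragments) in leaf, against 41.5 TPM (605 fragments) in bud, or at least 126-fold lower in leaf. The family 9 glycosyl hydrolase TR41402|c0_g1_i1 had 0 TPM (0 fragments) in leaf, against 42.1 TPM (646 fragments) in bud, or at least 135-fold lower in leaf. An L-ascorbate oxidase homolog of the SKU5 type, TR45238|c0_g1_i1, had 0 TPM (0 fragments) in leaf, against 32.4 TPM (499 fragments) in bud. The rhamnogalacturonate lyase TR44404|c0_g1_i1, which cuts pectin, had 0.09 TPM (1 fragment) in leaf, against 23.6 TPM (442 fragments) in bud, or 277-fold lower in leaf (95% interval 49.4 to 10953), whereas its relative TR34894|c0_g1_i2 had 6.43 TPM (30 fragments) in leaf, against 5.25 TPM (39 fragments) in bud. The endoglucanase 8-like unigene and the ascorbate oxidase homolog had no fragment in flower or root either.

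**Figure D4:**
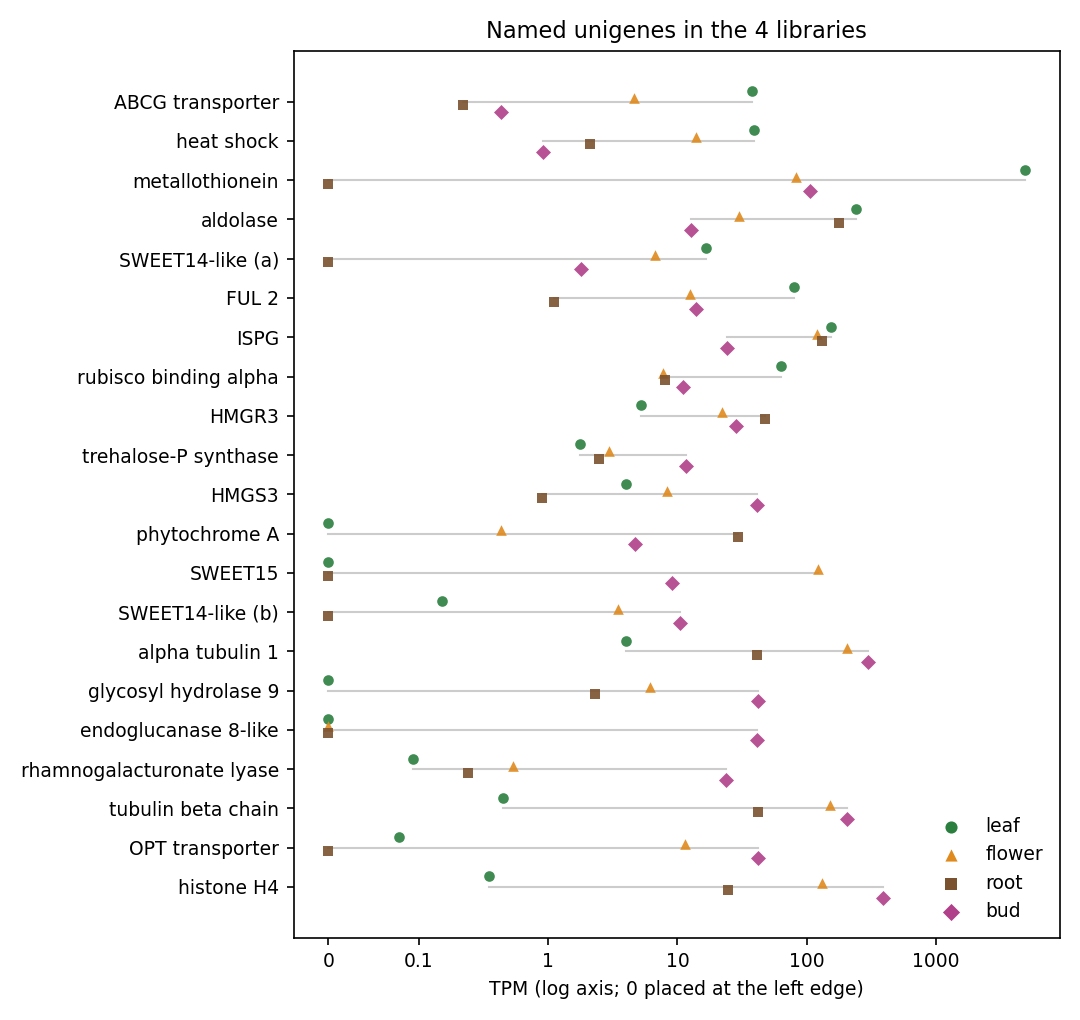
TPM (horizontal log axis, 0 at the left edge) of 21 named unigenes in the leaf (circle), flower (triangle), root (square) and bud (diamond) libraries, 1 library each, with a grey line over their range. Unigenes called higher in leaf are at the top and those called higher in bud at the bottom, where flower lies closer to bud than leaf does for the tubulins, histone H4 and the OPT transporter.

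Surface lipid and phenolic genes held differences in both directions. Of 26 annotated unigenes 12 passed, with 7 left out as too short and 7 for low counts. Of the 12, 2 were called higher in leaf, 1 of which ended on the FPKM scale, and 7 higher in bud. With no leaf fragment, 5 of the 12 passed through bud alone and had to differ, so these counts do not describe such genes at large. The white-brown-complex ABC transporter TR37791|c0_g1_i1, of a family that in Arabidopsis exports cuticle lipids, had 37.9 TPM (497 fragments) in leaf, against 0.43 TPM (9 fragments) in bud, and was 88.2-fold higher in leaf (95% interval 46.1 to 194). Another unigene of the same description, TR47002|c0_g1_i1, had 0 fragments in leaf and 68 in bud. The 4 GDSL esterase/lipase unigenes, of a family of lipid-cutting enzymes, had no leaf fragment, with TR40548|c2_g1_i1 at 0 TPM (0 fragments) in leaf, against 32.9 TPM (238 fragments) in bud, or at least 49.8-fold lower in leaf. Phenylalanine ammonia-lyase, the entry enzyme of phenolic metabolism, had 14 fragments in leaf, against 557 in bud, for TR48094|c2_g3_i1, and 138 in leaf, against 379 in bud, for TR34694|c0_g1_i1, which was not called. The orcinol O-methyltransferase TR32830|c0_g3_i1 had 0.49 TPM (3 fragments) in leaf, against 16.1 TPM (157 fragments) in bud.

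Of the regulators, FUL 2 was called for 4 transcripts of 2 Trinity genes, each higher in leaf. TR39420|c0_g2_i1 had 80.3 TPM (482 fragments) in leaf, against 13.9 TPM (133 fragments) in bud, or 5.78-fold higher in leaf (95% interval 4.76 to 7.06), and TR39420|c0_g1_i4 had 56.97 TPM (297 fragments) in leaf, against 10.3 TPM (86 fragments) in bud, or 5.51-fold higher in leaf (95% interval 4.32 to 7.08). The lowest of the 4, TR39420|c0_g1_i1, was 4.64-fold higher and lost its call on the FPKM scale. FRUITFULL proteins control flowering and fruit growth in Arabidopsis. The auxin response factors, which switch auxin target genes, gave 7 unigenes with none called. The 3 ARF9-like unigenes, transcripts of 1 Trinity gene, were 3.13-fold lower, 3.05-fold lower and 1.78-fold lower, and the first of them passed the 4-fold limit on the FPKM scale. The ARF3-like unigenes were 2.82-fold lower for TR40877|c3_g1_i1 and between 1.45 and 1.95-fold lower for the 3 transcripts of TR44078|c1_g1, the last with an interval that included 1.

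Heat shock proteins gave 3 calls higher in leaf, 1 of which, at 4.13-fold, ended on the FPKM scale, and 0 higher in bud among 18, with a median log2 ratio of -0.14. The unigene TR37429|c0_g1_i1 had 38.8 TPM (475 fragments) in leaf, against 0.92 TPM (18 fragments) in bud, or 42.2-fold higher in leaf (95% interval 26.4 to 71.8). The heat shock cognate 70 unigene TR29459|c2_g1_i1 had 125 TPM (289 fragments) in leaf, against 23.2 TPM (85 fragments) in bud, and TR29459|c2_g1_i2, at 3.899-fold higher, passed the 4-fold limit only after TMM or DESeq2 scaling. The class II protein TR40495|c1_g1_i5 had 423 TPM (1001 fragments) in leaf, against 652 TPM (2452 fragments) in bud. Argonaute and dicer, the slicers and processors of small RNAs, had 7 unigenes between 1.19 and 2.13-fold lower in leaf with none called, and all 7 were highest in bud. Of 36 pentatricopeptide repeat unigenes, which process organelle RNA, 1 was called higher in leaf and 2 higher in bud. None of the 23 transposon unigenes was called. The 5 resistance protein unigenes were between 2.02 and 3.11-fold higher in leaf, each with an interval above 1 and none called.

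Outside the lists, the described unigenes with the largest ratios toward leaf were led by a carboxylesterase 8-like unigene, TR37872|c0_g1_i2, with 76.1 TPM (287 fragments) in leaf, against 1 TPM (6 fragments) in bud, or 76.2-fold higher in leaf (95% interval 34.6 to 209). By level the metallothionein, a small cysteine-rich protein that binds metals, was far above the rest. Its transcript TR36151|c1_g1_i4 had 4869.5 TPM (10865 fragments) in leaf, against 106 TPM (376 fragments) in bud, or 45.9-fold higher in leaf (95% interval 41.4 to 50.95), and TR36151|c1_g1_i3 was 44.6-fold higher. Both had no fragment in root, and they stood at 82.2 and 72.9 TPM in flower. An F-box protein of the SKIP28 type, TR40886|c0_g2_i10, was 25.5-fold higher in leaf (95% interval 11.98 to 64.9). An anthocyanin O-acyltransferase-like unigene, TR40664|c2_g3_i2, had 16.4 TPM (152 fragments) in leaf, against 0.68 TPM (10 fragments) in bud, which was 24.3-fold higher in leaf (95% interval 12.8 to 51.6). The 2 transcripts of a receptor kinase like Arabidopsis At1g67000 were 23.9-fold higher and 22.3-fold higher, on 3 and 4 bud fragments. A pair of ring finger transcripts and an aminotransferase family unigene lay between 20.0 and 36.7-fold higher in leaf, on 2 to 4 bud fragments each.

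Toward bud the largest described difference outside the lists was that of an oligopeptide transporter, TR43473|c0_g1_i2, with 0.07 TPM (1 fragment) in leaf, against 42.2 TPM (908 fragments) in bud, or 568-fold lower in leaf (95% interval 102 to 22471). It was at 11.4 TPM in flower and absent from the root counts. PHO1-like unigenes, phosphate exporters in Arabidopsis, followed, and TR47065|c0_g2_i2 had 0.06 TPM (1 fragment) in leaf, against 6.43 TPM (169 fragments) in bud. An anthranilate N-benzoyltransferase, TR40066|c2_g1_i4, had 0.77 TPM (3 fragments) in leaf, against 41.2 TPM (255 fragments) in bud, or 53.4-fold lower in leaf (95% interval 18.1 to 261). A homolog of aminocyclopropane carboxylate oxidase, TR33448|c0_g1_i3, had 0.28 TPM (2 fragments) in leaf, against 7.54 TPM (87 fragments) in bud, and was higher in flower at 18.5 TPM. The ABC transporter B family member 19-like TR44902|c0_g1_i1, whose Arabidopsis counterpart moves auxin, had 0.33 TPM (8 fragments) in leaf, against 4.5 TPM (172 fragments) in bud, or 13.4-fold lower in leaf (95% interval 6.67 to 31.6). A late embryogenesis abundant protein, TR33980|c0_g1_i3, was 13.5-fold lower on 2 leaf fragments and was highest in root at 84.0 TPM.

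Some unigenes were seen in a single library. Of the 23060, 135 had fragments in bud and none in leaf, flower or root, and 13 had fragments in leaf alone. The study's own list of such unigenes with a pathway, which was chosen on these libraries, held 14 of the bud ones and 1 of the leaf ones. The most abundant, TR42011|c1_g2_i1, assigned to glycerolipid and alpha-linolenic acid metabolism, had 39572 bud fragments, or 2574 TPM. Others were TR35270|c0_g1_i1 of arginine and proline metabolism with 7211 bud fragments, TR37746|c0_g1_i1 of flavonoid biosynthesis with 1293 and TR43169|c0_g1_i3 of fatty acid biosynthesis with 977. A further one, TR32726|c0_g2_i1 of cutin, suberin and wax biosynthesis, had 765. The leaf unigene, TR30402|c0_g1_i1, assigned to monoterpenoid biosynthesis, had 41 leaf fragments, or 12.1 TPM.

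The tissue of the highest TPM is read in part from the values behind the calls, since a unigene called higher in leaf cannot be highest in bud, nor one called higher in bud highest in leaf. Of the 2145 unigenes called higher in leaf, 1900 (88.6%) had their highest TPM in leaf, 153 in root and 92 in flower. Of the 2845 called higher in bud, 2225 (78.2%) were highest in bud, 403 in flower and 217 in root. Of all 23060 unigenes 30.3% were highest in leaf and 34.5% in bud. The ratio of flower to root uses neither the leaf nor the bud library, and it was taken over the unigenes with a fragment in flower or root, 2112 of the leaf set, 2692 of the bud set and 22870 of all. Over these, the unigenes called higher in leaf had a median log2 ratio of flower over root of 1.098, and those called higher in bud had 1.23, against 0.58 for all unigenes. Differences of at least 4-fold were counted here without an interval and on as little as 1 fragment in flower or root, unlike the calls. Toward flower they were seen in 36.7% of the leaf set and 35.9% of the bud set, against 19.1% of all unigenes. Toward root they were seen in 13.2% of the leaf set and 5.72% of the bud set, against 3.98% of all. A count of 0 was read as 3 fragments here too, so 1 flower fragment with 0 in root came out at least 4-fold toward root. TR38018|c0_g1_i1 of the bud set had such counts. How many values rest on such counts was not counted, so these shares and medians give no direction for unigenes near 0.

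**Figure D5:**
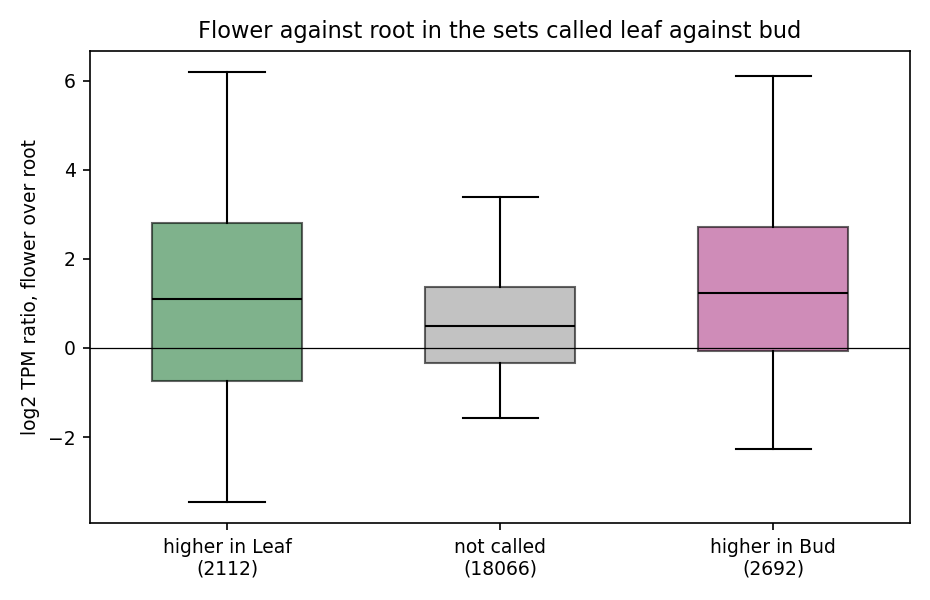
Log2 TPM ratio of flower over root (vertical axis) of unigenes called higher in leaf, not called and called higher in bud, with boxes from quartile to quartile, the median as a line and whiskers from the 5th to the 95th percentile. Both called sets have wider boxes than the uncalled unigenes, with medians of 1.098 and 1.23, and the numbers below each box count unigenes with a fragment in flower or root.

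Transcripts of 1 Trinity gene were seldom called in opposite directions. Of 4421 Trinity genes with at least 2 unigenes in the comparison, 977 had a call. In 301 of these all unigenes were called higher in leaf, and in 302 all were called higher in bud. The others mixed called and uncalled transcripts, apart from 5 with transcripts called in opposite directions. Of the described ones, TR47704|c0_g8, a GSO1-like receptor kinase of the leucine-rich repeat type, had 51 fragments in leaf and 13 in bud for transcript i3, which was 6.24-fold higher. Its transcript i2 had 2 fragments in leaf and 63 in bud, which was 19.8-fold lower. In the orcinol O-methyltransferase gene TR40251|c3_g2, transcript i3 had 32.7 TPM (261 fragments) in leaf, against 6.74 TPM (86 fragments) in bud, or 4.84-fold higher in leaf (95% interval 3.78 to 6.26), a call that ended on the FPKM scale, while the shorter i8, without a description of its own, had 5 fragments in leaf, against 148 in bud. Each transcript of that gene was highest in root, where i3 reached 1026 TPM. These 2 genes were picked after their values were seen, as described cases among the 5.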

How the data were processed

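The authors trimmed paired reads with Trimmomatic, built 1 de novo assembly from all 4 tissues with Trinity, removed redundancy with CD-HIT-EST, aligned the reads with Bowtie 2 and estimated abundance with RSEM. The versions are not given in the sources used here. The deposited expected counts are unscaled RSEM estimates of the fragments per unigene, and all were whole. The intervals take them as given and do not cover the division of fragments between similar transcripts. TPM as deposited adds up to the same total in each library after division by effective length, and FPKM as deposited divides by the library's fragments and the effective length. The deposited isoform percent was not used, and the joint FPKM table held the same values as the library tables. TPM ratios were recomputed from the counts and effective lengths, and differed from the deposited TPM of leaf by at most 0.492% where it was at least 1.

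Ratios carry exact conditional binomial intervals (SciPy 1.17.1), and a count of 0 was read as a floor of 3 fragments. TMM factors came from edgeR 4.0.16 and size factors from DESeq2 1.42.0, each for scaling only. The procedure was tested on simulated data. Library totals ranged from 4811266 to 7057551 fragments. Intervals and floors cover counting error only, since PCR copies are not independent molecules.

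The comparison, the gene lists and the rules were chosen with earlier results of these data known. The text names pathway enzymes, up to 4 unigenes per list and direction, the 10 described unigenes outside the lists with the largest ratio in each direction, and 2 undescribed unigenes per tissue with the largest TPM. Markers, sister transcripts and single-library unigenes named beside these were picked after their values were seen. The descriptions come from a supplementary annotation held here only in part. Settings tried were other scalings, count and length minimums, folds, sums over Trinity genes and a pseudocount. Comparisons with flower or root other than those given were left out.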

Additional observations from a re-analysis of the deposited data

How the results depend on the processing

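No paired analysis was possible because each tissue had 1 library. The settings that moved a count of calls by over 1.5 times were the count minimum and the fold. With a minimum of 10 summed fragments 3109 unigenes were called higher in leaf and 6041 higher in bud. With 100 there were 1495 and 1603, so the directions were closer to even than with 10 or with the main minimum of 40. At 2-fold 4335 were called higher in leaf and 5567 higher in bud, and at 10-fold 842 and 1748. Within that limit, the other settings gave 1655 to 2553 unigenes higher in leaf and 2450 to 3562 higher in bud, and no setting that compared unigenes gave one the opposite call, while sums over Trinity genes were not compared with single unigenes. TMM over the members raised each ratio by the same factor, 1.06, so all 2145 leaf calls had to be kept. Of the 2845 bud calls 2751 were kept. The FPKM scale moved the median log2 ratio to -0.53 and kept 1655 of the leaf calls, since it lowers every ratio by the same factor. Of 295 unigenes (those named, the list members, the single-library ones with a pathway and the transcripts of genes with opposite calls) 11 lost their call on that scale, 11 gained one and 0 turned round, and 5 of 40 list counts moved by over 1.5 times. With TMM scaling 2 of these gained a call (TR29459|c2_g1_i2 and TR47900|c2_g2_i6) and 2 lost one (TR34723|c0_g5_i3 and TR38524|c1_g1_i1), with DESeq2 scaling 2 gained and 3 lost one, and no list count moved that far. Differences between plants, harvests or libraries cannot be told apart from those between leaf and bud, and for unigenes with 40 to 99 fragments the median interval spanned 3.38-fold from its lower to its upper bound.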
